A study of Homo sapiens with 24 samples.

Results

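Messenger RNA of the genes that make, sense, take up and export cholesterol was followed in 2 human colorectal cancer lines, SW480 and SW620, which are established lines from a primary tumour and a lymph node metastasis. The genes were chosen by symbol: 30 of the 33382 genes in each table, of which 7 act in the mevalonate steps, 12 in the sterol steps, 4 in control of the SREBP factors, 3 in uptake and movement of cholesterol inside the cell and 4 in export. For short, STARD4, NPC1 and NPC2 are called uptake genes below, though they move cholesterol inside the cell. ABCA1, ABCG1, MYLIP and NR1H2 are called export genes, of which only ABCA1 and ABCG1 are transporters. Each line carried a lentivirus with Tet2CD, the catalytic domain of the 5-methylcytosine oxidase TET2, or the empty vector, and infected cells had been selected with 5 µg/ml puromycin. The cells were then given for 24 h either the cytokine TGFB1 at 4 ng/ml, or RepSox at 1 µM, a small molecule that blocks ALK5, the kinase of the TGF-beta receptor, or the solvent DMSO. These choices made 12 groups of 2 libraries, 24 in all, and every group therefore shared the virus backbone and puromycin. The sources used here do not say whether the infected cells were pools or clones, and they do not state if both libraries of a group were grown apart. P-values here thus cover the spread between these libraries alone, which may be technical.

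Cholesterol is made from acetyl-CoA through mevalonate and farnesyl diphosphate to squalene, which is closed into lanosterol and trimmed to cholesterol in the endoplasmic reticulum. When sterols run low there, the escort protein SCAP carries SREBP2, the product of SREBF2, to the Golgi, where it is cut and released as a transcription factor for the genes of synthesis and uptake. The INSIG proteins hold SCAP back when sterols are plentiful. When oxysterols build up, the LXR receptors instead drive export genes such as ABCA1 and ABCG1 and the ubiquitin ligase MYLIP, which removes lipoprotein receptors. Intestinal epithelium both makes and takes up cholesterol, and rapidly dividing cells need it for membranes.

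The libraries held 2146123 to 4410567 expected counts (median 3653712). TET2 stood at 23.4 to 499.9 TPM in the 12 Tet2CD libraries and at 1.92 to 4.57 TPM in the 12 vector libraries. Colon epithelial markers summed to 6935 to 12767 TPM, most of it from KRT8 and KRT18. Of the same list, KRT20 was at most 4.55 TPM, LGALS4 at most 7.33 TPM and CDX1 under 1 TPM in every library. Blood cell markers summed to 2.6 to 15.2 TPM, endothelial markers to 0.56 to 11.6 TPM and fibroblast markers to 3.52 to 32.0 TPM. The 3 SW480 Tet2CD libraries numbered 1 stood apart: ribosomal protein genes took 10.1% to 15.0% of their counts and 5.74% to 9.42% in the other 21 libraries. They also held less TET2, at 95.6, 23.4 and 115.6 TPM (TGFB1, RepSox, DMSO) against 499.9, 290.5 and 326 TPM in those numbered 2. Their totals, of 2713878, 2146123 and 2694170 expected counts, were the lowest of the 24 libraries. Each gene has 1 estimate of the spread, shared by all 12 groups. Standard errors in SW620 thus also carry the gaps between these 3 libraries and the others of their groups. The calls are therefore also given without these 3 libraries. That leaves 1 library in each SW480 Tet2CD group, which is then assumed to vary like the other groups. Levels are given as TPM (scaled for transcript length) where genes are set against each other and as CPM (counts scaled to the size of each library by TMM) where 1 gene is followed across libraries. Fold changes are log2 values with their standard error from the edgeR quasi-likelihood fit over 15302 genes, and a gene was called at an adjusted p under 0.05 over all of them. Counts at an unadjusted p under 0.05 are given without the share of all genes at that level, so they cannot be read as an excess. Percentages of all genes beside them refer to the adjusted threshold. In bulk RNA, fewer cells with a transcript and less of it per cell cannot be told apart.

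All 30 genes passed the filter on low counts, but their levels spanned a wide range. Over the 24 libraries the highest median was that of NPC2, which carries cholesterol out of the lysosome, at 353 TPM, followed by FDPS, the farnesyl diphosphate synthase, at 344 TPM, and EBP, a sterol isomerase, at 191 TPM. The ranges of these genes overlapped widely, from 77.9 to 1069 TPM for NPC2, from 177 to 900.1 TPM for FDPS and from 86.4 to 495 TPM for EBP, so their order was not fixed across libraries. By mean TPM of a group, 18 of the 30 genes were highest in SW480 vector cells with TGFB1, and 15 were by CPM. At the other end stood 3 of the 4 export genes: MYLIP with a median of 7.35 TPM, ABCG1 with 3.61 TPM and ABCA1 with 0.25 TPM. ABCA1, the pump that loads cholesterol onto apolipoprotein A-I, was at most 1.82 TPM and was listed at 0 in 1 library, so its fold changes rest on few counts.

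The 19 genes of synthesis were summed to see how the pathway as a whole varied. Their summed level was 1652 to 3351 TPM in the 12 SW480 libraries and 989.8 to 2209 TPM in the 12 SW620 libraries. In Tet2CD cells of SW480 it was 2084 and 2304 TPM with TGFB1 and 1652 and 1997 TPM with RepSox, against 1961 and 2101 TPM with DMSO. In vector cells of SW480 it was 3351 and 3304 TPM with TGFB1 and 1933 and 1920.1 TPM with RepSox, against 2004 and 2105 TPM with DMSO. The TGFB1 libraries of SW480 vector cells thus held the highest sums of all, and those of SW480 Tet2CD cells overlapped with DMSO. By summed CPM the SW480 Tet2CD libraries lay otherwise, at 2867 and 2349 with TGFB1, 2857 and 2202 with RepSox and 2623 and 2269 with DMSO. The RepSox library that was lowest by TPM was thus above both DMSO libraries by CPM. Both Tet2CD sums with DMSO were also above those of vector cells (2194 and 2151 CPM), so these orders depend on the measure. In Tet2CD cells of SW620 the sums were 2209 and 1645 TPM with TGFB1 and 1227 and 1264 TPM with RepSox, against 1100.0 and 1125 TPM with DMSO. In vector cells of SW620 they were 1649.6 and 1631 TPM with TGFB1 and 1211 and 1244 TPM with RepSox, against 989.8 and 995 TPM with DMSO. In both SW620 constructs the order was the same, with TGFB1 highest, RepSox between and DMSO lowest, and no libraries of different treatments overlapped.

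**Figure D1:**
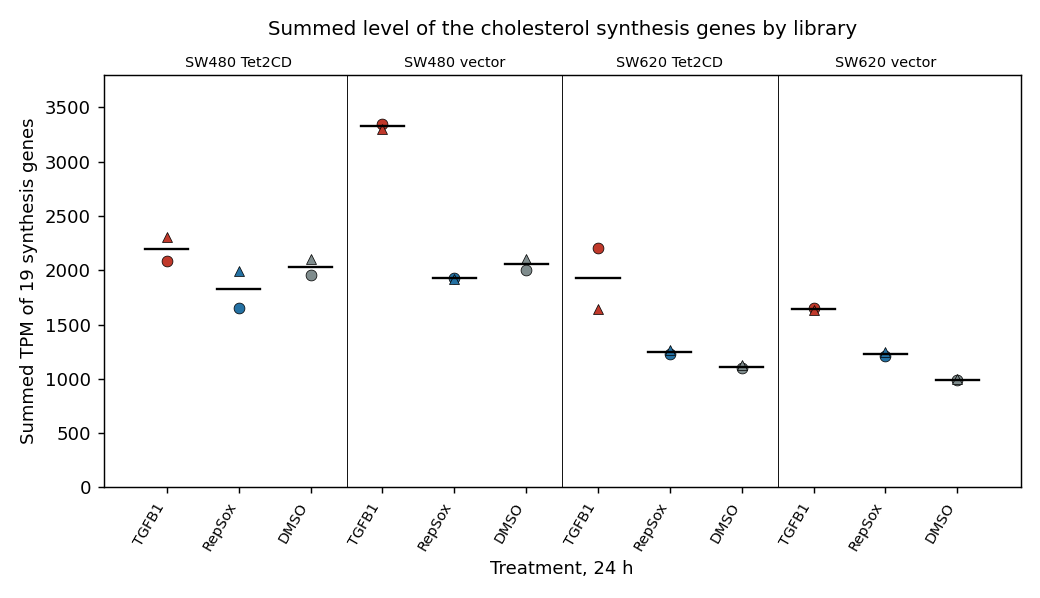
Summed TPM of the 19 cholesterol synthesis genes (vertical axis) in each library, by line, construct and treatment; circles are replicate 1, triangles replicate 2 and bars the mean of the 2. The SW480 vector libraries with TGFB1, at 3351 and 3304 TPM, are the highest, and in SW620 both constructs show TGFB1 above RepSox above DMSO.

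The first comparison is the response of SW620 cells to TGFB1, averaged over Tet2CD and vector cells (4 libraries against 4). Of the 30 genes 18 rose and 2 fell, 66.7% of the set, where 15.6% of all genes tested were called (8.31% higher and 7.27% lower). The median log2 fold change of the 30 was 0.75 and that of all genes 0.01. All TGFB1 libraries lay above all DMSO libraries for 20 of the 30 genes and below them for 4, against 15.3% and 15.7% of all genes. By step, 6 of 7 mevalonate genes rose, 7 of 12 sterol genes rose and 1 fell, 3 of 4 genes of SREBP control rose, 2 of 3 uptake genes rose, and of the 4 export genes 1 fell and none rose. The call nearest the threshold was that of LBR (adjusted p = 0.0498), and 13 of the 20 calls were kept whichever of the 8 libraries was left out. Of the other calls, those of MVD and LBR were kept in none of these 8 fits, those of MVK, ACAT2 and SREBF2 in 1, that of SQLE in 6 and that of NPC1 in 7. With the 3 libraries of SW480 that stood apart left out, all 20 were kept and EBP, SC5D, ABCG1 and MYLIP passed as well (20 higher and 4 lower, where 34.5% of all genes were called).

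In the mevalonate steps, HMGCS1 (ENSG00000112972), the cytosolic synthase that makes HMG-CoA, stood at 163 and 128 CPM with TGFB1 against 57.6 and 64.6 CPM with DMSO in Tet2CD cells, and 152 and 177 CPM against 56.3 and 68.9 CPM in vector cells. Every TGFB1 library was above every DMSO library, and the gene rose by a log2 fold change of 1.32 ± 0.29 (adjusted p = 0.005). The other mevalonate genes that rose were MVD (0.96), FDPS (0.84), IDI1 (0.79), MVK (0.74) and ACAT2 (0.55), given with their log2 fold changes. MVK and MVD are the kinase and the decarboxylase of the branch, IDI1 is the isopentenyl diphosphate isomerase, and ACAT2 is the cytosolic thiolase that supplies acetoacetyl-CoA. PMVK, the phosphomevalonate kinase between MVK and MVD, had a log2 fold change of -0.15 ± 0.34 (adjusted p = 0.832).

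In the sterol steps the largest rise was that of MSMO1 (ENSG00000052802), the oxidase that removes the methyl groups at C4 of the sterol ring, with 72.3 and 42.4 CPM with TGFB1 against 16.4 and 17.3 CPM with DMSO in Tet2CD cells, and 75.4 and 84.1 CPM against 22.6 and 16.1 CPM in vector cells. The 2 TGFB1 libraries of Tet2CD cells differed widely, yet both were above all DMSO libraries, and the log2 fold change was 1.91 ± 0.22 (adjusted p = 2.59e-05). SQLE, the squalene epoxidase and a slow step of the pathway, stood at 129 and 90.2 CPM with TGFB1 against 42.9 and 43.1 CPM with DMSO in Tet2CD cells, and 108 and 102 CPM against 41.8 and 37.2 CPM in vector cells. It rose by 1.38 ± 0.33 on the log2 scale (adjusted p = 0.00915), with no overlap between treatments. CYP51A1, the lanosterol demethylase, stood at 72.5 and 66.1 CPM with TGFB1 against 35.0 and 32.2 CPM with DMSO in Tet2CD cells, and 75.9 and 87.5 CPM against 29.7 and 27.6 CPM in vector cells. Its log2 fold change was 1.28 ± 0.15 (adjusted p = 2.83e-05), again with no overlap. HSD17B7, the 3-keto-sterol reductase, rose by 1.49 ± 0.21, and the remaining rises were FDFT1 (0.93), LSS (0.77) and DHCR7 (0.51), which encode squalene synthase, lanosterol synthase and the last reductase of one branch.

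The other 5 sterol genes were not called higher. LBR, an inner nuclear membrane protein that is also a sterol C14 reductase, stood at 93.2 and 82.7 CPM with TGFB1 against 135 and 146 CPM with DMSO in Tet2CD cells, and 93.5 and 94.3 CPM against 135 and 151 CPM in vector cells. It fell, with a log2 fold change of -0.64 ± 0.21, and the treatments did not overlap. TM7SF2, the second C14 reductase, had -0.10 ± 0.29 (adjusted p = 0.866) and NSDHL, the C4 decarboxylating dehydrogenase, 0.09 ± 0.21 (adjusted p = 0.84). EBP and SC5D, a late desaturase, had log2 fold changes of 0.79 ± 0.35 and 0.53 ± 0.25 with adjusted p = 0.138 and 0.174. Both C14 reductase genes thus had values below 0.

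Among the control genes, INSIG2 and INSIG1 (ENSG00000186480) changed most. INSIG2 stood at 38.8 and 28.1 CPM with TGFB1 against 7.20 and 9.09 CPM with DMSO in Tet2CD cells, and 39.4 and 46.3 CPM against 8.67 and 11.1 CPM in vector cells, and rose by 2.07 ± 0.25 on the log2 scale (adjusted p = 3.88e-05). INSIG1 stood at 167 and 103 CPM with TGFB1 against 43.4 and 41.0 CPM with DMSO in Tet2CD cells, and 121 and 121 CPM against 41.2 and 32.0 CPM in vector cells, and rose by 1.70 ± 0.18 on the log2 scale (adjusted p = 1.04e-05). Neither gene had overlapping treatments. SREBF2 (ENSG00000198911) itself rose by 0.58 ± 0.16 (adjusted p = 0.0199), and SCAP had 0.28 ± 0.13 (adjusted p = 0.154).

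Of the uptake genes, STARD4, which carries cholesterol between membranes in the cytosol, stood at 61.4 and 65.4 CPM with TGFB1 against 27.6 and 27.5 CPM with DMSO in Tet2CD cells, and 86.9 and 113 CPM against 29.4 and 34.9 CPM in vector cells. It rose by 1.42 ± 0.29 (adjusted p = 0.00335). NPC1, the lysosomal membrane partner of NPC2, rose by 0.95 ± 0.22 (adjusted p = 0.00668), while NPC2 had 0.10 ± 0.26 (adjusted p = 0.857). ABCA1 was the export gene that fell, with 0.815 and 0.339 CPM with TGFB1 against 3.23 and 3.96 CPM with DMSO in Tet2CD cells, and 0.979 and 1.58 CPM against 4.33 and 5.57 CPM in vector cells. That is a log2 fold change of -2.22 ± 0.51 (adjusted p = 0.00713), from 1 to 7 expected counts per TGFB1 library against 13 to 19 per DMSO library. ABCG1, which passes cholesterol to lipoproteins, and MYLIP had -0.51 ± 0.26 and -0.71 ± 0.31 (adjusted p = 0.215 and 0.145), and NR1H2, which encodes LXR beta, had 0.01 ± 0.17 (adjusted p = 1).

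**Figure D2:**
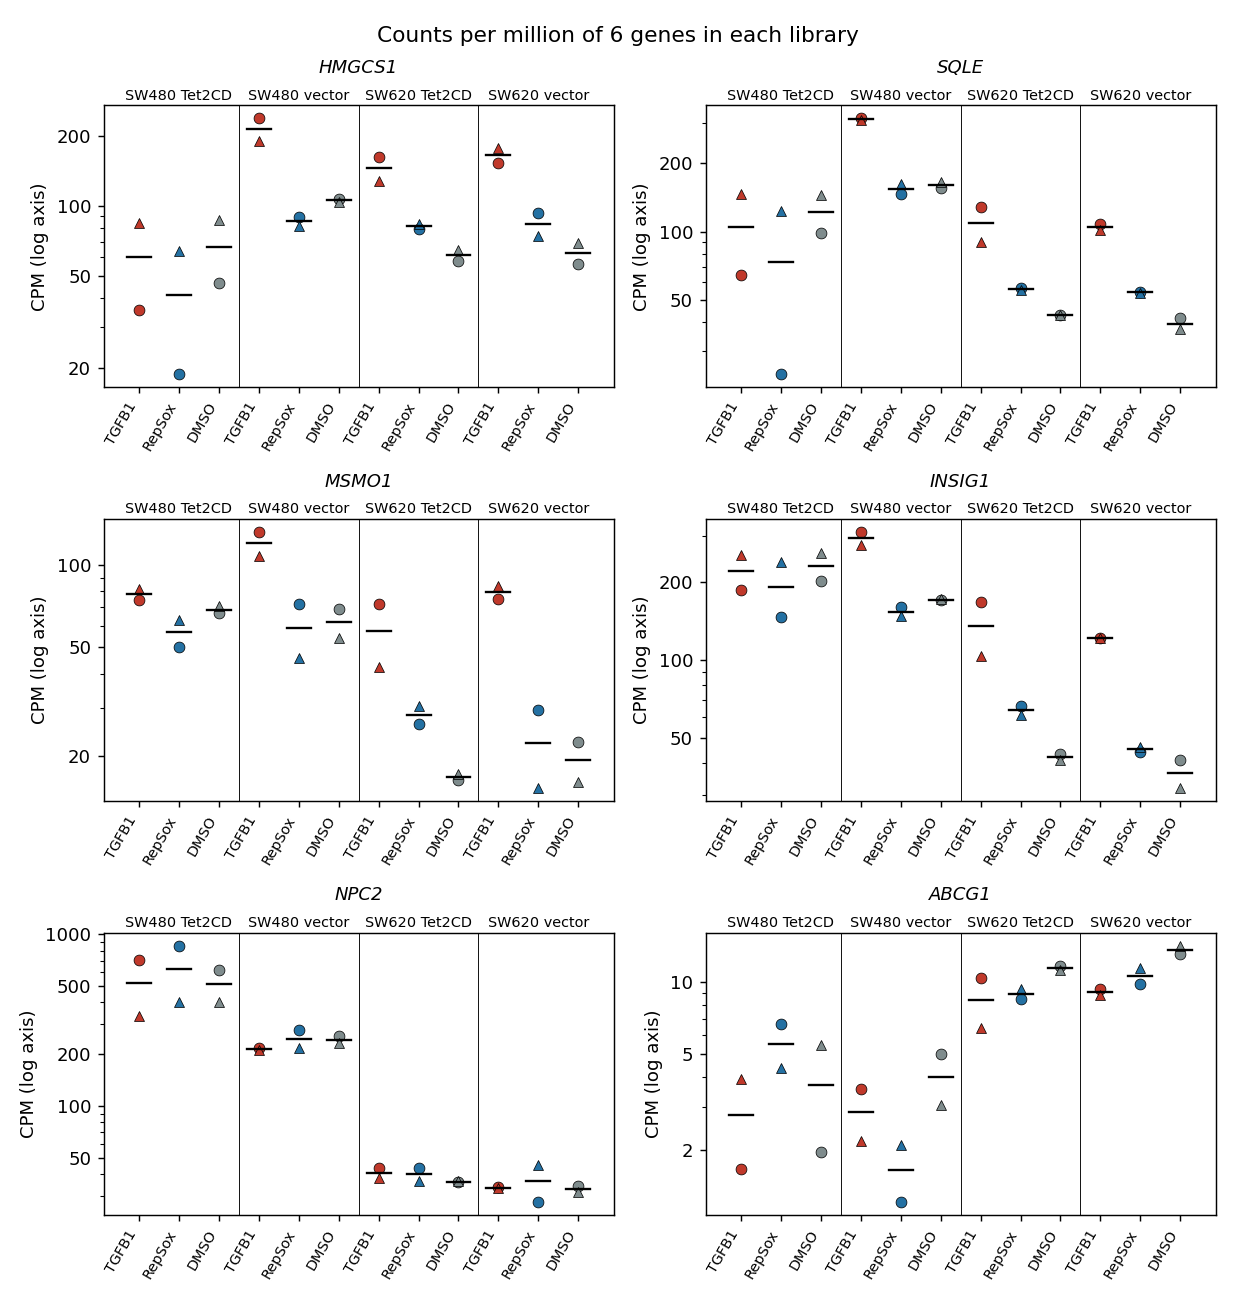
CPM on a log axis of HMGCS1, SQLE, MSMO1, INSIG1, NPC2 and ABCG1 in each library, by line, construct and treatment; circles are replicate 1, triangles replicate 2 and bars the mean of the 2. In SW620 the TGFB1 libraries of HMGCS1, SQLE, MSMO1 and INSIG1 lie above the DMSO libraries, and the SW480 Tet2CD circles lie low for HMGCS1 and SQLE and high for NPC2.

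Since many of these genes moved together, their RefSeq promoters (GRCh38.p14, 250 bases before to 50 after the start) were searched on both strands. A promoter was found for 26 of the 30 genes, with 33 windows in all. A gene was counted as matched if any of its windows held the motif. The core of the sterol regulatory element, TCACCCCAC, was in 1 of the 26 (3.8%), that of SREBF2, and in 0.53% of 27305 genes in the reference. The form with 1 open base, TCACNCCAC, which includes the first, was in the same 1 gene and in 1.39% of all genes. The CCAAT box, bound by NF-Y, was in 18 of 26 (69.2%) and in 13 of the 16 synthesis genes with a promoter (81.2%), against 39.7% of all genes. The E-box CACGTG was in 5 of 26 (19.2%) against 8.77%, and the nuclear receptor half-site AGGTCA in 2 of 26 (7.7%) against 16.5%. A match is only a run of letters, and a promoter without one may hold other forms of the element or hold it outside this window.

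The 4 promoters below are those of genes that rose with TGFB1 in SW620, 1 for each of the mevalonate and sterol steps and 2 for SREBP control, picked after their values were seen. They are the 250 bases before the annotated start, in which capitals mark the sterol regulatory element core and CCAAT boxes (ATTGG on the other strand). That of HMGCS1 lies at chr5:43313413-43313662 on the minus strand and holds 2 CCAAT boxes, that of MSMO1 at chr4:165327419-165327668 on the plus strand with 4, that of INSIG1 at chr7:155297628-155297877 on the plus strand with 1, and that of SREBF2 at chr22:41832855-41833104 on the plus strand with 1 CCAAT box and the sterol element, whose first base is 133 bases before the start. HMGCS1 has another window in the reference, which matched none of the motifs searched and is not shown.
HMGCS1: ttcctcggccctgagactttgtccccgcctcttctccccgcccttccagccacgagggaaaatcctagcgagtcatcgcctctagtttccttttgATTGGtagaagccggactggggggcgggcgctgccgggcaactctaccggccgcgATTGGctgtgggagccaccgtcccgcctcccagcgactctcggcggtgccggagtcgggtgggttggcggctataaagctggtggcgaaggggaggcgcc
MSMO1: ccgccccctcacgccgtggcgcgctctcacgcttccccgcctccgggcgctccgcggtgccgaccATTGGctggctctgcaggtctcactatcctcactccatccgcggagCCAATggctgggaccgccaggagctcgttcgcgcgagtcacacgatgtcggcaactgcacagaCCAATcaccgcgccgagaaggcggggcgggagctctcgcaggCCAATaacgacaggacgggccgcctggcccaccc
INSIG1: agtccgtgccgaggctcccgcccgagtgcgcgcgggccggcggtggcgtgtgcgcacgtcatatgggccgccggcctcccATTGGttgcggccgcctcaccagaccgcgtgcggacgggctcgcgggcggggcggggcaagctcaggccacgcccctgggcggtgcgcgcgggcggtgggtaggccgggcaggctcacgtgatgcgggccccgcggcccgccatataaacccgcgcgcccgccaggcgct
SREBF2: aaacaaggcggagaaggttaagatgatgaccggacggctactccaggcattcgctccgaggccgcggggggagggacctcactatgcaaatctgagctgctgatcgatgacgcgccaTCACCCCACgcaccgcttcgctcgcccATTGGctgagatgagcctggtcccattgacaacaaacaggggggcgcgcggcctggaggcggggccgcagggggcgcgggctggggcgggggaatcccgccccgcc

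In SW480, with Tet2CD and vector cells averaged, 1 of the 30 genes rose with TGFB1, where 0.732% of all genes rose and 1.05% were called, and the median log2 fold change was 0.30 against 0.02 for all genes. The gene was CYP51A1, with 214 and 257 CPM with TGFB1 against 164 and 204 CPM with DMSO in Tet2CD cells, and 379.5 and 296 CPM against 204 and 157 CPM in vector cells. Where 1.99% of all genes lay wholly above with TGFB1 and 1.48% wholly below, the treatments of CYP51A1 did not overlap. It rose by 0.63 ± 0.14 on the log2 scale (adjusted p = 0.04), and the call was lost in 7 of the 8 fits that left out 1 library, among them each that left out a vector library. The smallest p among the other steps belonged to FDPS in the mevalonate steps (0.62 ± 0.20, adjusted p = 0.155), to INSIG2 in SREBP control (0.53 ± 0.23, adjusted p = 0.327), to NPC1 in uptake (0.37 ± 0.22, adjusted p = 0.526) and to ABCG1 in export (-0.44 ± 0.34, adjusted p = 0.663). Without the 3 libraries that stood apart 7 genes rose and none fell (6.35% of all genes were called): HMGCS1, FDPS, SQLE, CYP51A1, DHCR7, SREBF2 and NPC1.

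The 2 constructs of SW480 were also followed apart. In Tet2CD cells the median log2 fold change of the 19 synthesis genes was 0.09, with 12 of 19 above 0, and in vector cells it was 0.65, with 17 of 19 above 0. The following 3 genes were picked after their values were seen. HMGCS1 stood at 35.6 and 84.2 CPM with TGFB1 against 46.3 and 86.9 CPM with DMSO in Tet2CD cells, and 238 and 191 CPM against 107 and 104 CPM in vector cells. SQLE stood at 64.6 and 147 CPM with TGFB1 against 98.5 and 146 CPM with DMSO in Tet2CD cells, and 317 and 309.7 CPM against 156 and 166 CPM in vector cells. FDPS stood at 514 and 285 CPM with TGFB1 against 402 and 259.5 CPM with DMSO in Tet2CD cells, and 556 and 589 CPM against 300.4 and 282 CPM in vector cells. In each of the 3 genes both vector libraries with TGFB1 were well above both with DMSO, whereas the Tet2CD libraries of the treatments overlapped, the libraries numbered 1 being the lower ones for HMGCS1 and SQLE and the higher ones for FDPS. Within Tet2CD cells alone none of the 30 genes passed in edgeR (0.0915% of all genes did) and none had an unadjusted p under 0.05. Within vector cells alone 1 passed (0.529% of all genes did) and 13 had an unadjusted p under 0.05, a count that cannot be set beside that share. The gene that passed was DHCR7, with 0.72 ± 0.15 (adjusted p = 0.0417). When the 3 libraries that stood apart were left out, 14 of the 30 rose in vector cells (2 libraries against 2), where 7.59% of all genes were called. In Tet2CD cells, then 1 library against 1 with the spread taken from other groups, none of the 30 passed (0.254% of all genes did), and that count cannot be set beside the 14.

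Whether Tet2CD changed the response to TGFB1 in SW480 was tested as an interaction. None of the 30 genes passed (0.0131% of all genes did), nor with DESeq2. At an unadjusted p under 0.05 there were 6, a level for which the share of all genes is not given. The 5 synthesis genes among those 6, and 16 of 19 synthesis genes in all, had a lower response in Tet2CD than in vector cells, with a median difference of -0.57 where all genes had 0.04. By step, the smallest p belonged to IDI1 (difference -0.88 ± 0.29), LSS (-0.62 ± 0.23), INSIG1 (-0.85 ± 0.34), NPC1 (-0.48 ± 0.43) and MYLIP (0.47 ± 0.65), with adjusted p of 0.855, 0.911, 0.956, 1 and 1. In SW620, 9 genes rose in Tet2CD cells and 8 in vector cells, each tested alone, where 4.79% and 4.96% of all genes were called. With the 3 SW480 libraries that stood apart left out of the fit, 19 rose and 2 fell in Tet2CD cells and 18 rose and 3 fell in vector cells, where 18.8% and 21.4% of all genes were called. With all libraries the interaction median in SW620 of the synthesis genes was 0.10 and no gene had an unadjusted p under 0.05, by edgeR, or passed with DESeq2. By step, the smallest p belonged to FDPS (0.29 ± 0.40), NSDHL (0.68 ± 0.42), SCAP (0.13 ± 0.25), STARD4 (-0.43 ± 0.58) and NR1H2 (0.35 ± 0.34), each at an adjusted p of 1. Leaving out the 3 libraries that stood apart gave 0 calls for either interaction as well (0.019% of all genes in SW480 and 0% in SW620).

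**Figure D3:**
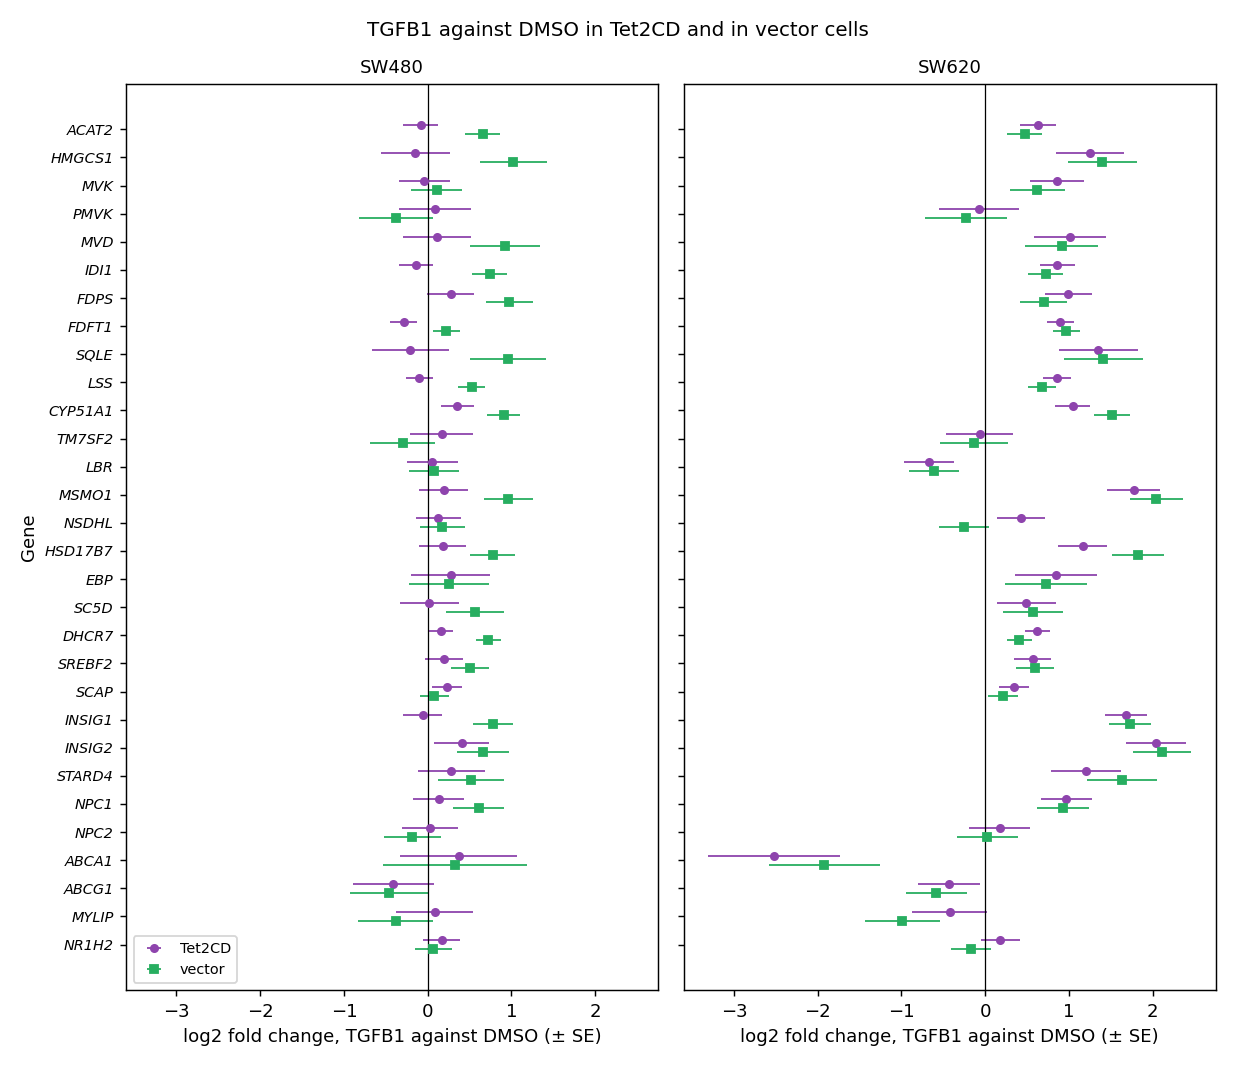
Log2 fold change of TGFB1 against DMSO (horizontal axis, with its standard error) of each of the 30 genes in Tet2CD (circles) and vector (squares) cells of SW480 (left) and SW620 (right). In SW480 the synthesis genes of Tet2CD cells have a median of 0.09 and those of vector cells one of 0.65, and in SW620 no gene's difference between the constructs passes the test.

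Averaged over the constructs, the response to TGFB1 differed between the lines for 4 of the 30 genes, where 2.07% of all genes were called and 1.17% were lower. All 4 had a smaller response in SW480 than in SW620. These were INSIG2 (SW480 minus SW620 -1.54 ± 0.34, adjusted p = 0.0235), INSIG1 (-1.34 ± 0.24, adjusted p = 0.0079), MSMO1 (-1.33 ± 0.30, adjusted p = 0.0281) and FDFT1 (-0.96 ± 0.16, adjusted p = 0.0043). FDFT1, which commits farnesyl diphosphate to sterols, stood at 121 and 124 CPM with TGFB1 against 163 and 136 CPM with DMSO in Tet2CD cells, and 158 and 183 CPM against 149 and 143 CPM in vector cells of SW480. In SW620 it stood at 409 and 299 CPM with TGFB1 against 192 and 188 CPM with DMSO in Tet2CD cells, and 337 and 324 CPM against 168 and 170.4 CPM in vector cells. The treatments overlapped in SW480 and did not in SW620. In the steps with no call the smallest p belonged to IDI1 (-0.49 ± 0.21, adjusted p = 0.286), STARD4 (-1.02 ± 0.40, adjusted p = 0.25) and ABCA1 (2.57 ± 0.77, adjusted p = 0.104). Of the 4 calls, only that of FDFT1 was kept whichever library was left out. In vector cells alone the synthesis genes had a median response of 0.65 in SW480 and 0.70 in SW620. In Tet2CD cells alone these medians were 0.09 and 0.86. The difference between the lines was not tested within a construct. Without the 3 libraries that stood apart 13 genes differed, 12 with a smaller response in SW480 and LBR with a higher value there, where 8.42% of all genes were called.

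RepSox, the receptor kinase inhibitor, was set against the same DMSO libraries as TGFB1. In SW480 none of the 30 genes was called by edgeR or DESeq2 and none had an unadjusted p under 0.05, nor was any gene of all those tested called (0%). The value furthest from 0 was -0.67 ± 0.64 for ABCA1, and the synthesis genes had a median of -0.03. By step, the smallest p belonged to HMGCS1 (-0.48 ± 0.29), SC5D (-0.30 ± 0.25), INSIG1 (-0.21 ± 0.17), STARD4 (-0.24 ± 0.29) and ABCG1 (-0.40 ± 0.35), each at an adjusted p of 1. The count was also 0 without the 3 libraries that stood apart. In SW620, FDFT1 and DHCR7 rose, 2 of 30, where 2.01% of all genes rose and 4.69% were called. FDFT1 stood at 282 and 260.4 CPM with RepSox against 192 and 188 CPM with DMSO in Tet2CD cells, and 239.7 and 253 CPM against 168 and 170.4 CPM in vector cells, and rose by 0.53 ± 0.11 on the log2 scale (adjusted p = 0.0113). DHCR7 stood at 186 and 177 CPM with RepSox against 156 and 157 CPM with DMSO in Tet2CD cells, and 176 and 193 CPM against 124 and 122 CPM in vector cells, and rose by 0.40 ± 0.11 on the log2 scale (adjusted p = 0.0391). Neither gene's treatments overlapped, where 10.7% of all genes lay wholly above with RepSox and 9.87% wholly below. Of the 8 fits that left out 1 library, the call of DHCR7 was kept in none and that of FDFT1 in 2, and in 6 none of the 30 genes was called. Within Tet2CD cells alone and within vector cells alone none of the 30 passed in edgeR, where 0.921% and 0.863% of all genes did, and 4 and 6 had an unadjusted p under 0.05.

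The median of the 19 synthesis genes with RepSox in SW620 was 0.33, against 0.02 over all genes, and 16 of the 19 were above 0. TM7SF2, singled out after its values were seen, lay the other way, with 16.9 and 19.3 CPM with RepSox against 34.5 and 37.3 CPM with DMSO in Tet2CD cells, and 16.2 and 17.0 CPM against 36.5 and 28.7 CPM in vector cells. Its log2 fold change was -0.98 ± 0.30 (adjusted p = 0.0772). No treatments of TM7SF2 overlapped. In the steps with no call the smallest p belonged to ACAT2 (0.40 ± 0.15, adjusted p = 0.166), INSIG1 (0.45 ± 0.18, adjusted p = 0.193), NPC2 (0.14 ± 0.26, adjusted p = 0.884) and ABCA1 (-0.95 ± 0.45, adjusted p = 0.3). Without the 3 libraries that stood apart, none of which is an SW620 library, 8 genes rose and 1 fell, TM7SF2 being the one that fell, where 15.4% of all genes were called. The difference in the RepSox response between the lines passed for none of the 30 genes with edgeR or DESeq2, where 1.03% of all genes passed, and 8 had an unadjusted p under 0.05. By step, the smallest p of that difference belonged to IDI1 (-0.46 ± 0.21), FDFT1 (-0.52 ± 0.16), INSIG1 (-0.66 ± 0.25), STARD4 (-0.34 ± 0.41) and MYLIP (0.35 ± 0.45), with adjusted p from 0.161 to 0.859. HMGCS1 and TM7SF2 passed once the 3 libraries that stood apart were left out, where 3.66% of all genes did.

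Tet2CD was set against the vector with DMSO alone (2 libraries against 2) and as the mean over the 3 treatments (6 against 6). In SW480 with DMSO none of the 30 genes was called by edgeR, where 6.76% of all genes were, 7 had an unadjusted p under 0.05, and DESeq2 called 2. LSS, the lanosterol synthase, came nearest, with 249 and 256 CPM in Tet2CD cells and 159 and 189.5 CPM in vector cells (log2 fold change 0.54 ± 0.16, adjusted p = 0.0546). In the other steps the smallest p belonged to MVD (0.99 ± 0.42, adjusted p = 0.153), SREBF2 (-0.54 ± 0.23, adjusted p = 0.154), NPC2 (1.07 ± 0.34, adjusted p = 0.0691) and NR1H2 (0.37 ± 0.22, adjusted p = 0.299). Leaving out the 3 libraries that stood apart keeps 1 Tet2CD library against 2, with its spread taken from other groups. The fit then called LSS, TM7SF2, INSIG1 and NPC2 higher and LBR lower, where 10.2% of all genes were called.

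Over the 3 treatments 10 of the 30 genes rose and 9 fell in SW480 Tet2CD cells, 63.3% of the set, where 54.5% of all genes were called (29.2% higher and 25.3% lower). The share was thus near the background, and the 30 genes had a median of -0.09 where all genes had 0.03. The genes that rose were ABCA1 (1.43), TM7SF2 (1.27), EBP (1.24), NPC2 (1.23), PMVK (0.87), MVD (0.87), MVK (0.55), NR1H2 (0.40), NSDHL (0.38) and LSS (0.33), and those that fell were HMGCS1 (-1.16), SQLE (-0.99), STARD4 (-0.88), LBR (-0.87), NPC1 (-0.81), INSIG2 (-0.74), SREBF2 (-0.72), SC5D (-0.50) and DHCR7 (-0.45), given with log2 fold changes. The synthesis pathway was split, with 7 rises and 5 falls among its 19 genes. Without the 3 libraries that stood apart 13 of the 19 calls were kept, whereas MVK, PMVK, MVD, NSDHL, SC5D and NR1H2 lost theirs, and the value of NSDHL turned to -0.01. In that fit INSIG1 and ABCG1 were also called higher (0.32 and 0.73) and FDPS and HSD17B7 lower (-0.43 and -0.43), so that 7 of the 30 were higher and 10 lower, where 38% of all genes were called.

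The values of 5 of these genes, chosen after they were seen, show what the calls rest on. HMGCS1 had 35.6, 18.8 and 46.3 CPM (TGFB1, RepSox, DMSO) in the Tet2CD libraries numbered 1 and 84.2, 63.6 and 86.9 CPM in those numbered 2, against a median of 106 CPM (lowest 81.5, highest 238) in the 6 vector libraries. NPC2 (ENSG00000119655) had 704, 854 and 616 CPM (TGFB1, RepSox, DMSO) in the Tet2CD libraries numbered 1 and 335, 403 and 404 CPM in those numbered 2, against a median of 224 CPM (lowest 212, highest 277) in the 6 vector libraries. For both genes the libraries numbered 1 lay furthest from the vector cells, and those numbered 2 lay on the same side for NPC2 but within the vector range for HMGCS1 with TGFB1 and DMSO. Without the libraries numbered 1 the log2 fold change was -0.70 ± 0.11 for HMGCS1 (adjusted p = 5.52e-05) and 0.68 ± 0.10 for NPC2 (adjusted p = 2.71e-05). TM7SF2 had 223, 308 and 168 CPM (TGFB1, RepSox, DMSO) in the Tet2CD libraries numbered 1 and 92.5, 116 and 113 CPM in those numbered 2, against a median of 70.2 CPM (lowest 53.5, highest 81.3) in the 6 vector libraries. LBR had 38.5, 35.7 and 42.0 CPM (TGFB1, RepSox, DMSO) in the Tet2CD libraries numbered 1 and 77.6, 72.7 and 70.0 CPM in those numbered 2, against a median of 103 CPM (lowest 97.2, highest 111) in the 6 vector libraries. Where 10.5% of all genes lay wholly above in Tet2CD cells and 9.66% wholly below, the Tet2CD and vector libraries did not overlap for NPC2, TM7SF2 and LBR. Their log2 fold changes without the libraries numbered 1 were 0.61 ± 0.10 for TM7SF2 and -0.52 ± 0.09 for LBR, against 1.27 ± 0.22 and -0.87 ± 0.18 with them. SREBF2 had 151, 110.2 and 140.4 CPM (TGFB1, RepSox, DMSO) in the Tet2CD libraries numbered 1 and 229.7, 179 and 194 CPM in those numbered 2. Its median in the 6 vector libraries was 258 CPM (lowest 229, highest 368). The highest Tet2CD value, with TGFB1, barely passed the lowest vector value, which was of another treatment. The vector means of SREBF2 by treatment were 345.5, 248 and 243 CPM (TGFB1, RepSox, DMSO), above both Tet2CD libraries of each. The part that the high ribosomal protein share, the lower TET2 level or the lower totals of the libraries numbered 1 have in these values was not tested.

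In SW620 cells none of the 30 genes was called between Tet2CD and vector cells, whether with DMSO (0.0261% of all genes were) or over the 3 treatments (0.314%), with 3 at an unadjusted p under 0.05 in each. With DMSO the smallest p by step belonged to MVK (0.28 ± 0.33), LSS (0.39 ± 0.17), SREBF2 (0.21 ± 0.23), STARD4 (-0.22 ± 0.42) and ABCA1 (-0.46 ± 0.59), each at an adjusted p of 1. DESeq2 called none with DMSO and 2 over the 3 treatments. The value nearest the threshold over the treatments was LSS, with a median of 73.3 CPM (lowest 68.1, highest 139) in the 6 Tet2CD libraries and 57.0 CPM (lowest 50.4, highest 90.8) in the 6 vector libraries (log2 fold change 0.46 ± 0.10, adjusted p = 0.0539). Those groups overlapped when the treatments were pooled, the TGFB1 libraries being the highest in both constructs. By treatment, the mean of LSS in Tet2CD cells was 131, 70.0 and 72.3 CPM (TGFB1, RepSox, DMSO). In vector cells it was 88.4, 52.4 and 55.3 CPM, lower with each treatment. The smallest p in the other steps belonged to MVK (0.27 ± 0.19), INSIG1 (0.29 ± 0.14), STARD4 (-0.25 ± 0.24) and ABCA1 (-0.78 ± 0.42), with adjusted p of 0.863, 0.71, 0.919 and 0.769. Without the 3 SW480 libraries that stood apart LSS, NSDHL and DHCR7 rose over the treatments (2.96% of all genes were called), and none was called with DMSO (0.0571%).

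The Tet2CD effect over the 3 treatments differed between the lines for 7 of the 30 genes (20.1% of all genes did, 10.2% higher and 9.93% lower). It was higher in SW480 for ABCA1 (2.21), TM7SF2 (1.11) and NPC2 (1.04) and lower for HMGCS1 (-1.07), SREBF2 (-0.84), LBR (-0.83) and DHCR7 (-0.74), given as SW480 minus SW620 on the log2 scale. DHCR7 had a median of 270.1 CPM (lowest 239, highest 311) in Tet2CD and 323 CPM (lowest 298, highest 515) in vector cells of SW480, and 181 CPM (lowest 156, highest 273) and 163 CPM (lowest 122, highest 193) in those of SW620. The difference between lines was -0.74 ± 0.12 (adjusted p = 0.000854), and that of SREBF2 was -0.84 ± 0.19 (adjusted p = 0.00628). These 2 calls were kept whichever library was left out, and all 7 were kept without the 3 libraries that stood apart, when 12 of the 30 passed (4 higher and 8 lower, where 19.5% of all genes did).

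With DMSO 21 of the 30 genes were higher and 3 lower in SW480 than in SW620 Tet2CD cells, 80% of the set, where 46.7% of all genes were called (24% higher and 22.7% lower). In vector cells 18 were higher and 2 lower, 66.7% of the set, where 34.5% of all genes were called (17.8% higher and 16.8% lower). The median log2 difference of the 30 was 1.39 in Tet2CD and 1.19 in vector cells, against 0.00 and -0.03 for all genes. Among the 19 synthesis genes 15 were higher and 1 lower in Tet2CD cells, and 11 were higher and none lower in vector cells. With the 3 libraries that stood apart left out, which keeps 1 SW480 library against 2 in Tet2CD cells, 24 genes were higher and 4 lower in Tet2CD cells (median 1.10, where 48.9% of all genes were called) and 24 were higher and 3 lower in vector cells (median 1.24, 50.1%). The 24 calls of Tet2CD cells were all kept, with HMGCS1, SC5D and NPC1 added as higher and FDFT1 as lower. Leaving out 1 library gave 19 to 22 calls in Tet2CD and 16 to 18 in vector cells.

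NPC2 differed most, with 616 and 404 CPM in SW480 against 36.0 and 36.4 CPM in SW620 Tet2CD cells, and 256 and 231 CPM against 34.0 and 31.7 CPM in vector cells. Its log2 difference was 3.81 ± 0.38 in Tet2CD and 2.89 ± 0.37 in vector cells (adjusted p = 7.93e-07 and 1.38e-05). CYP51A1 followed among the synthesis genes, with 164 and 204 CPM in SW480 against 35.0 and 32.2 CPM in SW620 Tet2CD cells, and 204 and 157 CPM against 29.7 and 27.6 CPM in vector cells, a difference of 2.46 ± 0.21 in Tet2CD and 2.65 ± 0.22 in vector cells (adjusted p = 1.52e-07 and 7.97e-08). INSIG1 had 202 and 258 CPM in SW480 against 43.4 and 41.0 CPM in SW620 Tet2CD cells, and 170.0 and 171 CPM against 41.2 and 32.0 CPM in vector cells, a difference of 2.44 ± 0.25 in Tet2CD and 2.22 ± 0.26 in vector cells (adjusted p = 1.21e-06 and 3.89e-06). None of these 3 genes had libraries of the lines that overlapped with DMSO, and for NPC2 the lowest of all 12 SW480 libraries was 212 CPM and the highest of all 12 SW620 libraries 45.4 CPM. Such gaps were common with DMSO: in Tet2CD cells 38.2% of all genes lay wholly above in SW480 and 39% wholly below, and in vector cells 37.5% and 39.7%.

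Further genes higher in SW480 in both constructs, with the log2 differences of vector cells, were SQLE (2.03), HSD17B7 (1.90), NSDHL (1.87), MSMO1 (1.67), LSS (1.66), ACAT2 (1.35), MVK (1.34), DHCR7 (1.33), TM7SF2 (1.18) and FDPS (1.16) in synthesis, INSIG2 (1.96) and SCAP (0.83) in control, STARD4 (1.60) in uptake and NR1H2 (1.33). NPC1 was higher in vector cells (0.82 ± 0.31, adjusted p = 0.0488) and had 0.32 ± 0.31 in Tet2CD cells (adjusted p = 0.407). In Tet2CD cells EBP (2.05), MVD (1.76), PMVK (1.49) and IDI1 (0.91) were higher as well, whereas their differences in vector cells, from 0.46 to 1.21, did not pass. HMGCS1, the first step after ACAT2, passed in neither construct (0.14 ± 0.41 in Tet2CD and 0.75 ± 0.41 in vector cells).

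Against this direction stood export genes. ABCG1 (ENSG00000160179) had 1.96 and 5.46 CPM in SW480 against 11.7 and 11.2 CPM in SW620 Tet2CD cells, and 4.99 and 3.07 CPM against 13.0 and 14.1 CPM in vector cells, a difference of -1.53 ± 0.41 in Tet2CD and -1.75 ± 0.41 in vector cells (adjusted p = 0.00611 and 0.00292). ABCA1 had 1.18 and 2.48 CPM in SW480 against 3.23 and 3.96 CPM in SW620 Tet2CD cells, and 1.47 and 0.256 CPM against 4.33 and 5.57 CPM in vector cells, and it was lower in SW480 vector cells (-2.53 ± 0.72, adjusted p = 0.012) with -0.90 ± 0.66 in Tet2CD cells (adjusted p = 0.275). Both genes were low in every SW480 group, with ABCG1 at 1.21 to 6.66 CPM there and 6.44 to 14.1 CPM in SW620. ABCA1 was low in both lines, at 0 to 3.14 CPM in SW480 and 0.339 to 5.57 CPM in SW620. Its call in vector cells was kept in 2 of the 4 fits that left out 1 library. In Tet2CD cells LBR (-1.31 ± 0.31, adjusted p = 0.00229) and SREBF2 (-0.65 ± 0.23, adjusted p = 0.028) were lower in SW480 too, while in vector cells LBR had -0.51 ± 0.30 and SREBF2 0.11 ± 0.23 (adjusted p = 0.205 and 0.756). FDFT1 was the other synthesis gene with values below 0 in both constructs (-0.35 ± 0.16 in Tet2CD and -0.21 ± 0.16 in vector cells, adjusted p = 0.0876 and 0.329).

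**Figure D4:**
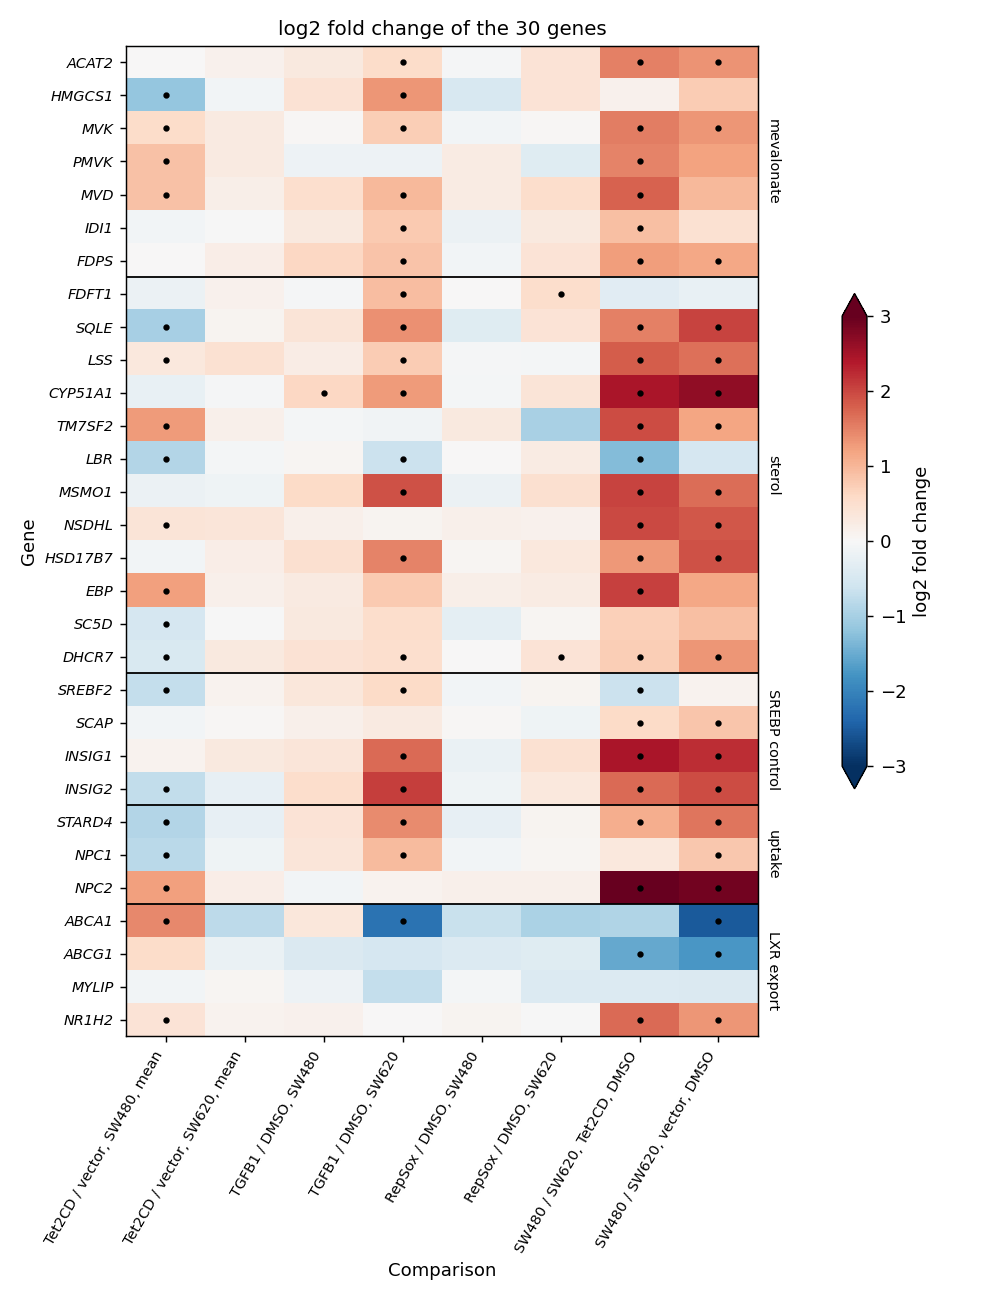
Log2 fold change (colour, red higher and blue lower) of the 30 genes (rows, by step) in 8 comparisons (columns, named as the first group over the second); a dot marks an adjusted p under 0.05. The column of TGFB1 in SW620 holds 20 dots, that of RepSox in SW480 none, and the 2 columns of the lines hold 24 and 20.

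A further 16 genes of cholesterol transport, storage and SREBP processing were set beside the 30. With TGFB1 in SW620, VLDLR, a receptor for lipoproteins, rose by 0.77 ± 0.23, and ACAT1, the mitochondrial thiolase, and TMEM97, a sterol-binding membrane protein, had -0.69 ± 0.13 and -0.56 ± 0.16 and so fell, 3 of 16 in all (18.8%, against 15.6% of all genes). The TGFB1 response of TMEM97 differed between the lines, by 0.88 ± 0.21 as SW480 minus SW620 (adjusted p = 0.0407). The sign of that difference was the reverse of MSMO1 and the INSIG genes, and the gene was called in SW620 alone. In SW480 TGFB1 raised 1 of the 16 (1.05% of all genes were called), SCARB1, the receptor for high-density lipoprotein, by 0.61 ± 0.12 (adjusted p = 0.0165). In SW480 with DMSO 2 of the 16 rose with Tet2CD, where 6.76% of all genes were called. These were SCARB1 (1.09 ± 0.17, adjusted p = 0.00115) and SREBF1, the gene of the SREBP form that mainly serves fatty acid synthesis (0.61 ± 0.16, adjusted p = 0.0324). Over the 3 treatments 7 rose and 4 fell (68.8%, against 54.5% of all genes). Those that rose were SCARB1 (1.19), NR1H3 (0.80), SREBF1 (0.66), VLDLR (0.59), AUP1 (0.58), STARD3 (0.38) and TMEM97 (0.31), where NR1H3 encodes LXR alpha, and those that fell were MBTPS2 (-0.87), OSBP (-0.64), ERLIN1 (-0.42) and MBTPS1 (-0.36), where MBTPS1 and MBTPS2 encode the proteases that cut SREBPs. With the 3 libraries that stood apart left out, 5 of these 11 calls were kept (SCARB1, SREBF1, VLDLR, MBTPS2 and OSBP) and LIPA was added as higher, where 38% of all genes were called. The Tet2CD effect was higher in SW480 than in SW620 for 2 of the 16 (20.1% of all genes differed), SCARB1 (0.84 ± 0.14, adjusted p = 0.000876) and VLDLR (0.79 ± 0.25, adjusted p = 0.0387). Between the lines TMEM97 and VLDLR were higher and LIPA, the lysosomal acid lipase that frees cholesterol from its esters, and OSBP were lower in SW480 in both constructs. These were the 4 calls in vector cells (25%, against 34.5% of all genes), and in Tet2CD cells AUP1 (1.09), SCARB1 (1.09) and STARD3 (0.54) were higher and MBTPS2 (-0.98) lower as well (50%, against 46.7%). Without the 3 libraries 7 of the 16 were called between the lines in Tet2CD cells (48.9% of all genes), LIPA and STARD3 losing their calls, and 9 in vector cells (50.1%). In SW620 that fit called 5 of the 16 higher and 6 lower with TGFB1 (34.5%) and 3 higher and 2 lower with RepSox (15.4%). With all libraries, LIPA had log2 differences of -0.70 ± 0.24 in Tet2CD and -1.13 ± 0.24 in vector cells.

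The counting leaves some of these values open to reads from neighbours. Of the 30 genes 16 overlap another gene that the tables list, for example ACAT2 with TCP1, MVK with MMAB, CYP51A1 with its antisense RNA and NPC2 with ISCA2, and no source used here says whether strand was used. The overlap is between the start and end of the annotated genes, and shared exons were not checked. Where exons are shared, reads of the overlapping partner may not be told apart.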

How the data were processed

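Libraries were prepared from TRIzol RNA with TruSeq kits and sequenced on a NextSeq 500. The authors trimmed reads with Trimmomatic and ran RSEM with bowtie2 (Bowtie in the submitters' notes) on an index from Ensembl v67 annotations to make the deposited expected counts, TPM and FPKM of each gene. Their methods also name a GC normalization but not the values it touched. The submitters' notes name the mouse build mm10, but the gene identifiers are human. Tool versions and the use of strand are not given in the sources used here. Labels and the study's text differ on the ligand and the duration of treatment, and the labels were followed.

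Expected counts as deposited were rounded and fitted in edgeR 4.0.16 (R 4.3.3) with TMM scaling, the filterByExpr filter by group and the quasi-likelihood test, with 1 mean for each of the 12 groups over all 24 libraries (15302 genes, 12 residual degrees of freedom, common biological coefficient of variation 21.3%). P-values were adjusted by Benjamini and Hochberg over all genes within each of 15 comparisons, and adjusted p-values in the text are from this fit. TPM were used as deposited and FPKM were not used. Steps were tested on simulated data. Groups came from the labels, and replicates were numbered in accession order, which pairs nothing. In every group the 2 libraries differed by more than sampling noise. Symbols were found for 98.2% of identifiers (GENCODE v29), and promoters came from RefSeq (GRCh38.p14).

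Named are the genes past the threshold in each comparison and, in a step with none, the one with the smallest p. Genes, lists and tests were chosen with earlier results of these data known. The fits of vector or Tet2CD cells alone and the difference of the TGFB1 effect between constructs were added after the data were seen. Alternatives were relative log expression scaling, no filter on low counts, DESeq2 1.42.0, a term for the set of library numbers, only the libraries of a line, CPM in place of TPM, and leaving out the 3 libraries that stood apart or each library in turn.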

Additional observations from a re-analysis of the deposited data

Results flagged for a closer look

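The Tet2CD effect over the 3 treatments differed between the lines for 7 genes by the interaction test in edgeR, given as SW480 minus SW620 on the log2 scale. It was 2.211 ± 0.644 (SE) for ABCA1 (adjusted p = 0.0258), 1.113 ± 0.327 for TM7SF2 (adjusted p = 0.027) and 1.042 ± 0.287 for NPC2 (adjusted p = 0.0201). It was -1.074 ± 0.334 for HMGCS1 (adjusted p = 0.0338), -0.836 ± 0.185 for SREBF2 (adjusted p = 0.00628), -0.825 ± 0.246 for LBR (adjusted p = 0.0284) and -0.744 ± 0.121 for DHCR7 (adjusted p = 0.000854). The genes of both signs come from several steps of the pathway.

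The TGFB1 effect, averaged over the constructs, differed between the lines for 4 genes by the same test. The difference was -1.542 ± 0.336 (SE) for INSIG2 (adjusted p = 0.0235), -1.343 ± 0.243 for INSIG1 (adjusted p = 0.0079), -1.331 ± 0.298 for MSMO1 (adjusted p = 0.0281) and -0.963 ± 0.16 for FDFT1 (adjusted p = 0.0043). In each of these genes the response was lower in SW480.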

How the results depend on the processing

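Counts are of the 30 genes called, and the cause of each shift was not tested. For Tet2CD against vector in SW480 with DMSO (0 called), relative log expression scaling gave 1, DESeq2 2, the term for library numbers 2, no filter 5, leaving out the 3 libraries that stood apart 5, and leaving out 1 library 0 to 1. Over the 3 treatments (19 in SW480), only the libraries of the line gave 12 and leaving out 1 library 15 to 20, and in SW620 (0) the scaling gave 1, the term 1, DESeq2 2, the line alone 2 and leaving out the 3 libraries 3. For TGFB1 in SW480 (1 called), no filter, the line alone and Tet2CD cells alone gave 0, the scaling, the term and DESeq2 gave 2 each, leaving out the 3 libraries 7 and leaving out 1 library 0 to 1. For TGFB1 in SW620 (20 called), vector cells alone gave 8, Tet2CD cells alone 9 and leaving out 1 library 14 to 18. For RepSox in SW620 (2), no filter gave 1, the line alone 11, leaving out the 3 libraries 9, either construct alone 0 and leaving out 1 library 0 to 1.

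The Tet2CD effect differed between the lines for 7 genes, and for 12 without the filter or without the 3 libraries. Leaving out 1 library gave 3 (SW480 Tet2CD with DMSO, replicate 1) to 15 (SW480 Tet2CD with RepSox, replicate 2). The TGFB1 effect differed for 4 genes, for 7 without the filter and for 13 without the 3 libraries, and leaving out 1 library gave 1 (SW620 vector with DMSO, replicate 2) to 5. For RepSox (0) the counts were 1, 2 and 0 to 5, the last without SW480 Tet2CD with RepSox, replicate 2.

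Without the 3 libraries the Tet2CD value of NSDHL in SW480 was -0.008 (0.381 with them). The other values that changed sign had not passed the test. When 1 library was left out, ABCG1 in SW480 ran from -0.859 to 0.071 with TGFB1 and from -0.651 to 0.098 with RepSox (0.422 in Tet2CD cells alone), STARD4 with RepSox in SW480 from -0.671 to 0.006, and NPC2 with RepSox in SW620 from -0.069 to 0.292. MYLIP ran from -0.54 to 0.632 in the RepSox difference between lines and from -0.48 to 0.919 in the TGFB1 difference between constructs of SW480, and FDPS from -0.034 to 0.569 in that of SW620. Of the values under an alternative of the genes named by the rule in each comparison (those called there and, in a step with none, the one with the smallest p), 1851 kept their direction and side of the threshold, 245 lost the call, 26 gained one and 9 changed sign. By CPM 15 genes were highest in SW480 vector cells with TGFB1, against 18 by TPM. No paired analysis was possible because the labels give no replicate number within a group and do not call the sets of library numbers a batch. The term for those 2 sets, each with 1 library of every group, is the nearest fit and its counts are given above where they moved. ABCA1 and ABCG1 rest on few counts.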
